A study of Mus musculus with 12 samples.

Results

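The effect of oleic acid (OA) in the presence of benzbromarone (BBR) was read from the 3 libraries of primary mouse hepatocytes given BBR and OA together (BBR+OA) against the 3 libraries given BBR alone (BBR), which are 6 of the 12 libraries sequenced. The libraries were chosen by their titles, and the drug was present in both groups, so that the groups differed by the OA treatment. BBR is a urate-lowering drug used in gout that inhibits the urate transporter URAT1. OA is the monounsaturated fatty acid most often used to load cultured hepatocytes with lipid, and the study gave it bound to albumin. The methods describe no albumin for cultures without OA, and the part of albumin was not tested. The other 6 libraries, untreated (control) and OA alone (OA), were used only to ask whether the OA effect differed when BBR was absent. The sample labels name the tissue as liver and the deposited design text speaks of the OA groups as a high-fat diet, whereas the methods of the study describe hepatocytes isolated from mouse liver by collagenase perfusion and given OA in culture. The design text calls the 3 libraries of a group biological replicates, but no label says whether they came from separate mice, so the p-values measure the spread between these cultures, which may be technical.

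In hepatocytes, an incoming fatty acid is activated to its coenzyme A ester and is then burned in mitochondria or peroxisomes, stored as triglyceride in lipid droplets, or exported in lipoproteins. Fatty acids and their derivatives also bind nuclear receptors of the PPAR family, which drive oxidation and storage genes, and unsaturated fatty acids hold back SREBP1, the factor that drives fatty acid synthesis and desaturation. ATF4 is the transcription factor of the integrated stress response, a program that switches on amino acid synthesis, amino acid uptake and tRNA charging. NRF2 is the factor that switches on antioxidant and detoxification genes.

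The 6 libraries held between 15485508 counts (BBR replicate 2) and 21544490 counts (BBR replicate 1), and mitochondrial transcripts took 6.68% to 7.55% of them. Hepatocyte markers dominated every library, with Alb alone at 28900 to 30400 CPM (the share of a library's counts scaled to a common total, the level used throughout) in BBR and 32000 to 34400 CPM in BBR+OA. Macrophage and bile duct markers were present, and some of them moved between the groups. Their values stand beside the genes they touch. Of 7 lymphoid markers, 6 were at 0 in all 6 libraries. Over all 12 libraries the first principal component, with 49.7% of the variance, placed the BBR+OA libraries at 18.7 to 20.9 and the BBR libraries at -21.2 to -20.0.

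OA changed a large part of the transcriptome of BBR-treated hepatocytes, mostly by small steps. Of 12416 genes tested, 4826 (38.9%) passed an adjusted p of 0.05 in edgeR's quasi-likelihood test, and these are the genes described below as risen or fallen. There were 2496 genes higher (20.1%) and 2330 lower (18.8%) with OA. The median absolute log2 fold change (log2FC) of the called genes was 0.347, and 88.6% of them moved by less than 2-fold. At 2-fold or more, 241 genes (1.94%) rose and 309 (2.49%) fell. The balance of directions depended on the scaling: with upper quartile scaling 1976 genes were higher and 2870 lower, which is 40.8% higher against 51.7% in the fit used here. The counts of a gene group are therefore also given with that scaling where it evens out or turns the balance of rises and falls.

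**Figure D1:**
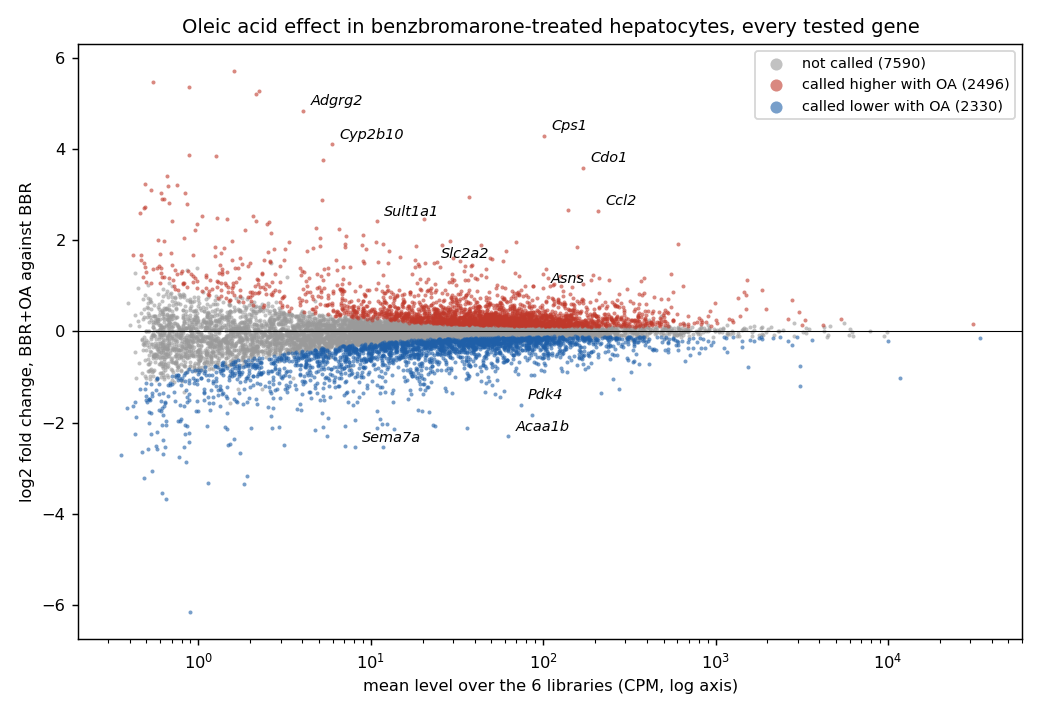
Log2 fold change (log2FC) of each tested gene in BBR+OA against BBR (vertical axis) by its mean level over the 6 libraries in CPM (horizontal log axis), 1 point a gene, coloured by the edgeR call. The 2496 higher and 2330 lower genes lie mostly close to 0, and Cps1 and Cdo1 stand out as well expressed genes with large rises.

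The 12 largest rises were taken among called genes that reached 5 CPM in 1 group and whose libraries did not overlap between the groups. They were in genes of differing functions, with Adgrg2, Cps1 and Cyp2b10 first by fitted log2FC. Cps1 encodes carbamoyl phosphate synthetase, the mitochondrial enzyme that commits ammonia to the urea cycle (mm10, chr1:67123026-67231259, plus strand). Its level was 12.2, 8.68 and 8.22 CPM in the 3 BBR libraries and 185, 207 and 186 CPM in the 3 BBR+OA libraries. The groups were far apart, with a log2FC of 4.29 (SE 0.10, adjusted p = 1.11e-12). Cdo1, cysteine dioxygenase, which starts the oxidation of cysteine to taurine and sulfate, stood at 26.2, 27.5 and 25.1 CPM with BBR and at 318, 320 and 304 CPM with BBR+OA. Its replicates differed little within each group and its log2FC was 3.58 (SE 0.05, adjusted p = 3.03e-15). Acmsd, which diverts tryptophan breakdown away from NAD synthesis, rose from 6.30, 5.79 and 6.61 CPM to 32.3, 37.1 and 33.8 CPM, a log2FC of 2.46 (SE 0.09, adjusted p = 1.46e-10).

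Cyp2b10, the cytochrome P450 best known as a target of the xenobiotic receptor CAR, rose from 0.368, 1.09 and 0.591 CPM to 9.60, 11.5 and 12.6 CPM, a log2FC of 4.10 (SE 0.24, adjusted p = 1.33e-08). Sult1a1, a phenol sulfotransferase, rose from 3.40, 4.25 and 2.74 CPM to 21.3, 16.8 and 16.5 CPM (log2FC 2.41, SE 0.15, adjusted p = 2.15e-08). Eif4ebp3, a member of the family that holds back cap-dependent translation, had a log2FC of 3.75 (SE 0.19, adjusted p = 3.33e-09), from under 1 CPM in each BBR library to between 9.16 and 11.2 CPM. Serpina3m, a secreted protease inhibitor, rose by 2.65 (SE 0.07, adjusted p = 1.23e-11) and Akap12, a scaffold of protein kinase A, by 2.94 (SE 0.09, adjusted p = 6.17e-11). Adgrg2, an adhesion receptor, had the largest fitted log2FC of the genes chosen for level, 4.83 (SE 0.25, adjusted p = 4.9e-09). It rested on 5, 7 and 3 counts in the BBR libraries against 147, 145 and 143 counts in the BBR+OA libraries, so its starting level is poorly known. Cdc42ep5, an effector of the small GTPase CDC42, rose by 2.25 (SE 0.18, adjusted p = 2.84e-07). Counts of close relatives such as the Serpina3 and Cyp2b genes can be shared among copies, and their individual values are uncertain to that extent.

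The 12 largest falls, chosen in the same way, were led by Sema7a and Htr2b. Sema7a, a membrane-anchored semaphorin, stood at 8.93, 18.7 and 14.1 CPM with BBR and at 2.37, 2.64 and 2.02 CPM with BBR+OA. The BBR libraries varied, and the log2FC was -2.53 (SE 0.25, adjusted p = 1.94e-06). Htr2b, a serotonin receptor, fell from 14.8, 23.3 and 22.5 CPM to 3.03, 3.75 and 3.63 CPM (log2FC -2.53, SE 0.18, adjusted p = 8.85e-08). Acaa1b, a peroxisomal thiolase and the most abundant gene of this group, fell from 125, 92.8 and 95.1 CPM to 21.2, 20.8 and 21.6 CPM, a log2FC of -2.30 (SE 0.10, adjusted p = 1.18e-09). Cyp26a1, which breaks down retinoic acid, fell from 20.9, 19.4 and 12.7 CPM to 2.93, 6.33 and 2.97 CPM (log2FC -2.11, SE 0.24, adjusted p = 7.93e-06). Col27a1, a fibrillar collagen, fell from 59.0, 60.9 and 57.7 CPM to 13.2, 14.98 and 12.4 CPM (log2FC -2.13, SE 0.07, adjusted p = 6.73e-11). The other 7 were Cdh17, Csdc2, Lrrc14b, Scara5, Pdzrn3, Tenm4 and Per3, with log2FC values between -2.51 and -2.08.

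**Figure D2:**
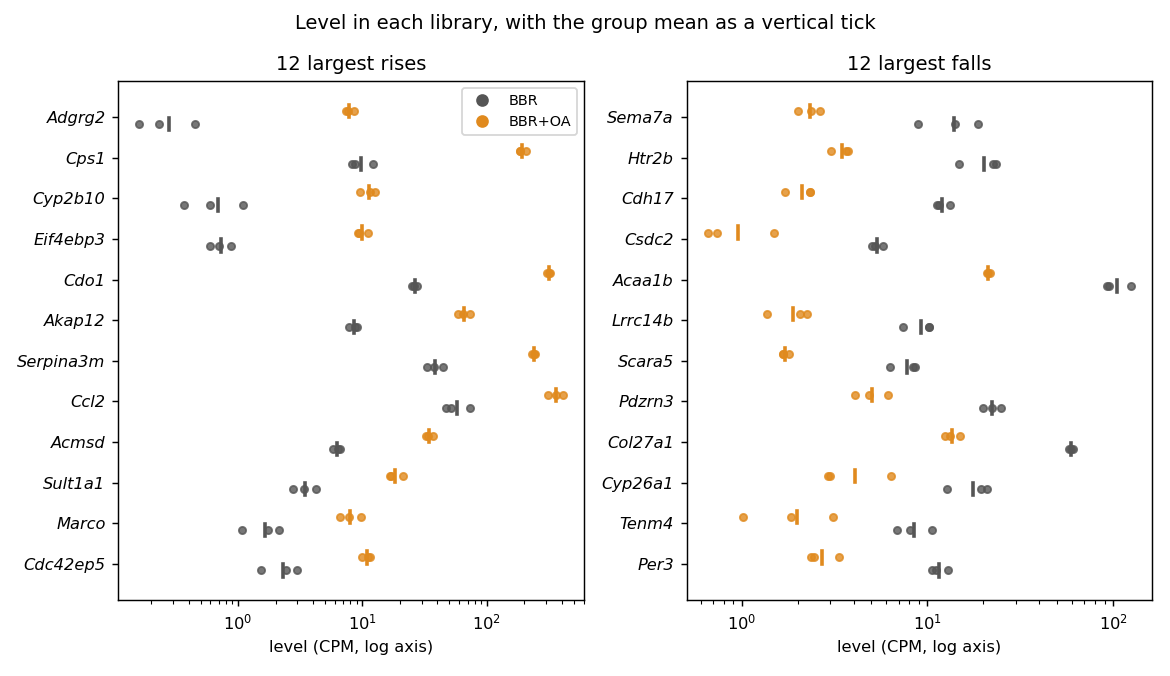
Level in CPM (log axis) of the 12 largest rises (left) and the 12 largest falls (right) among called genes that reached 5 CPM in 1 group, 1 point a library and a vertical tick at each group mean, for BBR and BBR+OA. The genes were also chosen to have libraries that did not overlap between the groups, so the separation of the points follows from that choice. Adgrg2 and Cyp2b10 start from under 1 CPM or close to it.

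Genes of the integrated stress response and of the amino acid supply it controls rose together with OA. Of 18 stress response regulators and markers tested, 10 rose and 2 fell, with a median log2FC of 0.434 beside -0.00606 over all tested genes. Atf4 itself stood at 234, 256 and 245 CPM with BBR and at 343, 343 and 334 CPM with BBR+OA, a log2FC of 0.47 (SE 0.04, adjusted p = 1.08e-06). Chac1, which degrades glutathione, rose from 22.5, 20.5 and 25.9 CPM to 54.1, 49.7 and 47.8 CPM (log2FC 1.14, SE 0.08, adjusted p = 6.27e-08), and Atf3 rose from 45.4, 44.3 and 43.9 CPM to 70.8, 76.1 and 70.6 CPM (log2FC 0.70, SE 0.05, adjusted p = 1.03e-07). Trib3, Ddit3 (CHOP) and Sesn2 rose by 0.54, 0.47 and 0.45. Ddit4, an inhibitor of mTORC1 that also responds to low oxygen, went the other way, with a log2FC of -0.41 (SE 0.06, adjusted p = 6.1e-05).

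Of 19 genes of serine, one-carbon, asparagine and proline synthesis, 15 rose and 1 fell, with a median log2FC of 0.524. Cth, which makes cysteine from cystathionine, went from 38.6, 38.4 and 42.7 CPM to 97.4, 97.7 and 96.0 CPM (log2FC 1.28, SE 0.05, adjusted p = 4.12e-10). Gpt2, the mitochondrial alanine aminotransferase, went from 105, 81.7 and 99.8 CPM to 212, 228 and 228 CPM (log2FC 1.22, SE 0.07, adjusted p = 1.3e-08). The serine pathway enzymes Phgdh, Psat1 and Psph rose by 1.003, 1.203 and 0.85, the mitochondrial folate enzyme Mthfd2 by 1.02, and the asparagine synthetase Asns by 0.94. Aldh1l1, a folate enzyme that releases one-carbon units as carbon dioxide, was the exception at -0.56 (SE 0.05, adjusted p = 5.54e-07).

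The core of the C/EBP-ATF response element, the site at which ATF4 is known to act, was searched as TGATGNAA on both strands of the 250 bases before each gene start in RefSeq (GRCm38.p6). It was held by 3.53% of all 27025 promoters, by 2.04% of the 9439 promoters of tested genes that the table holds, by 2.92% of those of genes that rose and by 1.08% of those of genes that fell. Among the 32 stress response and amino acid synthesis genes with a promoter in the table, 7 held it. The 4 called members of these lists with the largest changes that hold the letters are shown, with the match in capitals (TTGCATCA is the match read from the other strand).
Chac1 (chr2:119350992-119351241, plus strand): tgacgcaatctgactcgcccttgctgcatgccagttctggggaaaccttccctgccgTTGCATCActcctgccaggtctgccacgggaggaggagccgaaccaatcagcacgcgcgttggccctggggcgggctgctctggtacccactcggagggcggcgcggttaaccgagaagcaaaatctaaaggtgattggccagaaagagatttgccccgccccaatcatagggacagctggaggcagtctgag
Asns (chr6:7693210-7693459, minus strand): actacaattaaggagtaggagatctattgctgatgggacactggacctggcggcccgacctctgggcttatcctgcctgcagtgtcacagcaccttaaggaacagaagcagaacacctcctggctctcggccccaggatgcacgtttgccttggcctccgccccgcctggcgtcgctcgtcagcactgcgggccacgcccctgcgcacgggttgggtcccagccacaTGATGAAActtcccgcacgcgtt
Pycr1 (chr11:120643749-120643998, minus strand): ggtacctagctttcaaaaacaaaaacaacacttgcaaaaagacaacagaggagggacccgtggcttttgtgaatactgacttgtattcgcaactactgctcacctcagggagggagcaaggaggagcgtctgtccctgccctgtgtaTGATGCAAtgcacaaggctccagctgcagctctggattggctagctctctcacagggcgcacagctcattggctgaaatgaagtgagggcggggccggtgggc
Atf3 (chr1:191183334-191183583, minus strand): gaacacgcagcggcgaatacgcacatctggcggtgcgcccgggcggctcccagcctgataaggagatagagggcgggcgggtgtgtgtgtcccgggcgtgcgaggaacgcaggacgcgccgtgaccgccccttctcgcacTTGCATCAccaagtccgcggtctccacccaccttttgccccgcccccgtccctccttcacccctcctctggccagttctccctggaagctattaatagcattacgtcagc
The match in Asns begins 23 bases before the gene start and that in Chac1 193 bases before it. Pycr1, which makes proline, rose by 0.87 and Asns by 0.94. A match of letters is a description of the window, and binding was not measured.

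Charging of tRNA and uptake of amino acids moved with the synthesis genes. Of 20 cytosolic aminoacyl-tRNA synthetases, the enzymes that load amino acids onto tRNA, 17 rose and none fell, with a median log2FC of 0.427. Vars, for valine, went from 83.0, 82.5 and 87.4 CPM to 175, 163 and 170 CPM (log2FC 1.004, SE 0.04, adjusted p = 1.23e-09). Gars, for glycine, went from 204, 218 and 217 CPM to 391, 409 and 409 CPM (log2FC 0.92, SE 0.04, adjusted p = 1.9e-09). Of 17 mitochondrial synthetases 4 rose (23.5%, beside 20.1% of all tested genes) and none fell. Mars2 rose the most at 0.65 (SE 0.13, adjusted p = 0.00111), and the median was 0.0768. Of 18 amino acid transporters 11 rose and 1 fell. Slc7a1, a carrier of cationic amino acids, rose from 19.1, 18.9 and 21.2 CPM to 51.5, 50.8 and 46.6 CPM (log2FC 1.33, SE 0.07, adjusted p = 2.66e-09), and Slc38a3, a glutamine carrier, rose by 0.96 (SE 0.07, adjusted p = 1.59e-07). Slc7a11, the cystine carrier that ATF4 and NRF2 share as a target, fell from 219, 213 and 218 CPM to 138, 158 and 155 CPM (log2FC -0.53, SE 0.05, adjusted p = 1.61e-06).

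Chaperones of the endoplasmic reticulum did not move as a group. Of 21 tested, 6 rose (28.6%) and 4 fell (19%), beside 20.1% and 18.8% of all tested genes, and the median was 0.00394. With upper quartile scaling 4 rose and 5 fell, with a median of -0.0382, and the falls came to 2 without BBR replicate 1, BBR replicate 2 or BBR+OA replicate 2. Herpud1, which serves degradation of misfolded proteins, rose by 1.002 (SE 0.05, adjusted p = 3.33e-09) and Dnajc3 by 0.44 (SE 0.04, adjusted p = 2.13e-06), whereas the protein disulfide isomerase Pdia4 fell by 0.51 (SE 0.05, adjusted p = 3.33e-06).

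NRF2 targets moved downward. Of 28 tested, none rose and 19 fell, with a median log2FC of -0.284. Abcc4, an exporter of organic anions, went from 25.9, 23.5 and 25.5 CPM to 10.9, 16.6 and 14.6 CPM (log2FC -0.84, SE 0.11, adjusted p = 4.81e-05). Cbr3, a carbonyl reductase, went from 12.5, 11.5 and 10.96 CPM to 6.26, 6.75 and 7.07 CPM (log2FC -0.80, SE 0.11, adjusted p = 3.71e-05). Hmox1, heme oxygenase, fell by 0.68 and the glutathione transferase Gsta4 by 0.77. Gclc, the catalytic subunit of glutathione synthesis, had a log2FC of 0.17 and was not called, while its partner Gclm fell by 0.26.

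The core of the antioxidant response element, TGACNNNGC on either strand, was held by 10.1% of all promoters and by 12.2% of those of tested genes. Its share was 13.0% for genes that rose and 12.6% for genes that fell, both near that of the tested genes. Of 23 NRF2 targets with a promoter in the table, 4 held it. The 3 called members with the largest falls that hold the letters are shown, with the match in capitals as it reads on the printed strand.
Abcc4 (chr14:118706220-118706469, minus strand): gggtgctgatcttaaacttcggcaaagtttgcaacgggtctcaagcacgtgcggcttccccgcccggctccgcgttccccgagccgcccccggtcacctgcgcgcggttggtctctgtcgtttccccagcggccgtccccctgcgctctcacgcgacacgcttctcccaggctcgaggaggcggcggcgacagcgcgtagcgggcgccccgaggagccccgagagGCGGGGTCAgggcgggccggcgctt
G6pdx (chrX:74428881-74429130, minus strand): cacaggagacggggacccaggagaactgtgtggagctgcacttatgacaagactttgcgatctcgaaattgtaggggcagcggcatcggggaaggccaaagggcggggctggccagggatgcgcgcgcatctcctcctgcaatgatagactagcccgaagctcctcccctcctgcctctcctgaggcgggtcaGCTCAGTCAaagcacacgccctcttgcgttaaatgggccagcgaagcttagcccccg
Gclm (chr3:122245307-122245556, plus strand): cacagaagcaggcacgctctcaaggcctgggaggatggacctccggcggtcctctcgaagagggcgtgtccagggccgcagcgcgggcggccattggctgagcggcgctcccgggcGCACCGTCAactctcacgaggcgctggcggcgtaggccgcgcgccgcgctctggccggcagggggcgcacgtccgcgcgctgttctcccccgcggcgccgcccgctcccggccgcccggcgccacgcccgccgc
G6pdx, the entry enzyme of the pentose phosphate pathway, fell by 0.30 on the log2 scale. As above, the matches describe letters and not binding.

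Among urea cycle and glutamine genes 6 of 12 rose and 2 fell. Apart from Cps1, the rises were small, led by the ornithine carrier Slc25a15 at 0.46 (SE 0.07, adjusted p = 0.000108). Glul, glutamine synthetase, fell from 156, 133 and 130 CPM to 102, 94.2 and 93.7 CPM (log2FC -0.53, SE 0.06, adjusted p = 1.42e-05). Of 33 genes of hepatic amino acid breakdown and the methionine cycle, 14 rose and 6 fell, with a median of 0.298 that dropped to 0.171 without BBR replicate 3. Tat, tyrosine aminotransferase, a classical fasting gene, rose from 6.58, 4.37 and 5.75 CPM to 13.6, 15.9 and 19.5 CPM (log2FC 1.52, SE 0.15, adjusted p = 2.37e-06). Tdo2, which opens tryptophan breakdown, fell from 32.5, 28.6 and 29.9 CPM to 9.95, 7.38 and 9.87 CPM (log2FC -1.75, SE 0.10, adjusted p = 1.25e-08). Tryptophan handling therefore held both directions, with Tdo2 down and Acmsd up.

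Genes of hepatic glucose handling were more often higher than lower with OA. Of 12 genes of glucose sensing, glycogen and fructose breakdown, 7 rose and 1 fell (5 and 3 with upper quartile scaling). Slc2a2, the glucose carrier GLUT2, rose from 10.4, 10.1 and 15.9 CPM to 29.9, 36.0 and 36.6 CPM (log2FC 1.49, SE 0.13, adjusted p = 8.83e-07). Tkfc, which phosphorylates glyceraldehyde from fructose, rose from 60.9, 55.6 and 57.8 CPM to 156, 141 and 150 CPM (log2FC 1.36, SE 0.05, adjusted p = 2.06e-10). Txnip, a glucose-responsive arrestin, fell by 0.43 (SE 0.10, adjusted p = 0.00239). Of 9 genes of gluconeogenesis and pyruvate entry 5 rose and 3 fell. Mpc2, a subunit of the mitochondrial pyruvate carrier, rose by 1.25 (SE 0.07, adjusted p = 1.05e-08) and the glucose-6-phosphate carrier Slc37a4 by 1.14 (SE 0.10, adjusted p = 8.91e-07), whereas pyruvate carboxylase Pcx fell by 0.63 (SE 0.05, adjusted p = 2.15e-07). Pck1 and G6pc, the enzymes at the start and end of glucose production, rose by 1.38 and 0.90. Their coactivator gene Ppargc1a fell by 0.84. Pck1 and Ppargc1a had means under 5 CPM in both groups.

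Glycolysis and hypoxia-inducible genes went the other way: 10 of 24 fell and 1 rose, with a median of -0.114. Hk1, hexokinase, fell from 96.2, 135 and 132 CPM to 72.9, 86.4 and 85.9 CPM (log2FC -0.56, SE 0.10, adjusted p = 0.000578), and Ankrd37 fell by 0.53 (SE 0.08, adjusted p = 0.000141). Ldha, lactate dehydrogenase, rose by 0.13 (SE 0.04, adjusted p = 0.0305), a call that was lost with upper quartile scaling and in 5 of the 6 fits that left out 1 library.

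Fatty acid genes did not move as a single block. Of 22 genes of mitochondrial oxidation and ketogenesis, 9 rose and 5 fell. Etfdh, which passes electrons from acyl-CoA dehydrogenases to the respiratory chain, rose from 89.4, 81.9 and 82.9 CPM to 136, 140 and 146 CPM (log2FC 0.73, SE 0.05, adjusted p = 4.39e-08). Cpt1a, the gate of mitochondrial fatty acid entry, rose by 0.58. Acaa2, the mitochondrial thiolase, fell by 0.69 (SE 0.06, adjusted p = 2.82e-07), and both subunits of the trifunctional protein, Hadha and Hadhb, fell slightly, by 0.18 and 0.15.

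Peroxisomal oxidation leaned downward, with 8 of 17 genes lower and 2 higher. After Acaa1b the members named were Ehhadh, the bifunctional enzyme, which went from 520, 431 and 389 CPM to 290.1, 280.2 and 246 CPM (log2FC -0.71, SE 0.09, adjusted p = 1.46e-05), and Acot4, a thioesterase, which rose by 0.65 (SE 0.08, adjusted p = 3e-05). Acot3, another thioesterase, and Abcd2, a peroxisomal importer of very long chain fatty acids, had log2FC values of -1.57 and -1.63. Abcd2 averaged only 0.636 CPM with BBR and 0.198 CPM with BBR+OA, so its change rests on few counts. The list's median was -0.151 and came to -0.0743 without BBR replicate 1, where 5 genes rose and 6 fell, and without BBR+OA replicate 1 the counts were 3 and 5. Of 10 Cyp4 omega-hydroxylases 1 rose (10%) and 2 fell (20%), beside 20.1% and 18.8% of all tested genes. Their log2FC values ran from -0.807 to 1.44. The counts were 1 and 5 with upper quartile scaling and 1 and 4 with replicate number as a block. The falls numbered between 1 and 3 when 1 library was left out, and Cyp4a12b (log2FC -0.39, SE 0.13, adjusted p = 0.0261) lost its call in 3 of the 6 fits that left out 1 library.

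Fatty acid synthesis and desaturation fell, with 10 of 14 genes lower, 2 higher and a median of -0.277. Scd1, the stearoyl-CoA desaturase that makes oleic acid itself, stood at 4427, 3942 and 4539 CPM with BBR and at 1833, 1845 and 1916 CPM with BBR+OA. This was the most abundant of the synthesis genes named, and it fell by 1.21 (SE 0.05, adjusted p = 1.41e-09). Scd2 went from 25.4, 23.8 and 28.4 CPM to 11.97, 14.1 and 13.9 CPM (log2FC -0.96, SE 0.09, adjusted p = 1.1e-06). The polyunsaturated fatty acid desaturases Fads1 and Fads2 fell by 0.50 and 0.53, and Srebf1, the gene of SREBP1, fell by 0.27. Elovl6, an elongase, rose by 0.33 (SE 0.06, adjusted p = 0.000499).

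Of 19 lipid droplet genes 5 rose and 5 fell (26.3% each), not far from the 20.1% and 18.8% of all tested genes. Plin4, a droplet coat protein, went from 18.7, 17.6 and 17.4 CPM to 3.89, 5.17 and 5.23 CPM (log2FC -1.92, SE 0.11, adjusted p = 1.49e-08). G0s2, an inhibitor of triglyceride lipolysis, went from 17.6, 10.5 and 11.9 CPM to 5.66, 4.91 and 6.54 CPM (log2FC -1.25, SE 0.18, adjusted p = 7.4e-05). Hsd17b13, a droplet enzyme of hepatocytes, rose from 54.8, 57.2 and 65.4 CPM to 119, 154 and 152 CPM (log2FC 1.26, SE 0.09, adjusted p = 8.58e-08), and Cidec, which fuses droplets, rose from 13.8, 9.52 and 9.99 CPM to 19.1, 21.7 and 19.0 CPM (log2FC 0.82, SE 0.12, adjusted p = 8.74e-05). Plin2, the main droplet coat of hepatocytes, lay at 1702, 1682 and 1554 CPM against 1666, 1617 and 1589 CPM, groups that overlapped (log2FC -0.02, SE 0.05, adjusted p = 0.784). Hilpda, which also restrains lipolysis, fell from 108, 120 and 102 CPM to 81.3, 82.6 and 84.2 CPM (log2FC -0.41, SE 0.05, adjusted p = 3.8e-05).

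Of 11 triglyceride synthesis genes 4 rose and 5 fell. This balance was not firm, since only 2 fell, beside 4 that rose, with DESeq2 and without BBR+OA replicate 1, and 3 fell without BBR replicate 2, BBR replicate 3 or BBR+OA replicate 2. Gpam, which attaches the first acyl chain to glycerol phosphate, rose by 0.71 (SE 0.07, adjusted p = 1.66e-06). Dgat2, which attaches the last, fell by 0.29 (SE 0.06, adjusted p = 0.0019), and Lpin1, a phosphatidate phosphatase, fell by 0.64 (SE 0.09, adjusted p = 4.38e-05). Among 15 genes of uptake, binding and activation 2 rose and 5 fell. Cd36, the scavenger receptor that takes up fatty acids, went from 10.7, 8.75 and 7.09 CPM to 6.57, 4.27 and 4.40 CPM (log2FC -0.80, SE 0.18, adjusted p = 0.00306). The fatty acid binding proteins Fabp4 and Fabp5 moved in opposite directions, by 1.14 (SE 0.08, adjusted p = 5.18e-08) and -0.79 (SE 0.05, adjusted p = 2.41e-08), and the liver form Fabp1 fell by 0.51.

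Export genes were more often higher than lower: 8 of 16 apolipoprotein and lipoprotein assembly genes rose and 2 fell (8 and 4 with upper quartile scaling or without BBR replicate 3, 8 and 0 without BBR replicate 2). Apoc2, the activator of lipoprotein lipase, rose from 19.5, 20.4 and 16.9 CPM to 59.2, 47.5 and 47.1 CPM (log2FC 1.44, SE 0.09, adjusted p = 3.94e-08), and Tm6sf2, which helps load lipoproteins with lipid, rose by 1.38 (SE 0.22, adjusted p = 0.000206). Apoa1 and Apob rose by 0.80 and 0.69.

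Of the PPAR genes, Pparg fell with OA. It stood at 11.6, 14.0 and 12.6 CPM with BBR and at 6.26, 7.33 and 6.12 CPM with BBR+OA, a log2FC of -0.94 (SE 0.11, adjusted p = 1.53e-05). Ppara lay at 6.49, 4.69 and 4.73 CPM against 8.23, 6.12 and 7.31 CPM, groups that overlapped. Its log2FC of 0.43 (SE 0.16, adjusted p = 0.0447) was not called by DESeq2, with upper quartile scaling or in 4 of the 6 fits that left out 1 library. Ppard was not called (log2FC -0.11, SE 0.08, adjusted p = 0.313). Over 20 nuclear receptors of lipid and drug metabolism 5 rose and 5 fell (25% each), near the 20.1% and 18.8% of all tested genes. The counts were 3 and 6 with upper quartile scaling and 3 and 5 without BBR replicate 2 or BBR+OA replicate 3. Rarb, a retinoic acid receptor, fell by 0.94 (SE 0.14, adjusted p = 0.000108) beside the retinoic acid hydroxylase Cyp26a1. Pdk4, a PPAR target that shuts down pyruvate oxidation, fell from 116, 115 and 104 CPM to 39.0, 37.1 and 33.5 CPM (log2FC -1.61, SE 0.06, adjusted p = 2.45e-10).

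Cholesterol synthesis and uptake genes were split by small changes: 10 of 22 rose and 3 fell, but the median was -0.00512 and upper quartile scaling gave 7 of each. Hsd17b7, a late enzyme of the pathway, rose by 0.52 (SE 0.06, adjusted p = 7.4e-06). Insig1, which holds the SREBP complex in the endoplasmic reticulum, fell from 195, 236 and 209 CPM to 129, 134 and 126 CPM (log2FC -0.72, SE 0.06, adjusted p = 4.23e-07). Of 11 bile acid genes 4 rose and 1 fell. Abcb11, the bile salt export pump, rose from 11.04, 10.7 and 8.003 CPM to 28.9, 26.8 and 26.8 CPM (log2FC 1.47, SE 0.10, adjusted p = 6.23e-08), its regulator Nr1h4 (FXR) rose by 0.43 (SE 0.10, adjusted p = 0.00514), and the phospholipid floppase Abcb4 fell by 0.75 (SE 0.06, adjusted p = 5.54e-07). Among all 35 ABC transporters tested 7 rose (20%) and 11 fell (31.4%), beside 20.1% and 18.8% of all tested genes. Abcc12 fell by 1.32 (SE 0.12, adjusted p = 1.03e-06).

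Drug metabolism genes were more often lower than higher with OA. Of 32 cytochrome P450 genes of families 1 to 3, 5 rose (15.6%) and 9 fell (28.1%), beside 20.1% and 18.8% of all tested genes. This balance was not firm, since 7 rose and 7 fell without BBR replicate 1. Log2FC values in the list ran from -1.35 to 4.10, and Cyp2b10 and Cyp2c70 (log2FC 1.89) were among the rises. Among called members that reached 5 CPM, Cyp2e1, the ethanol-inducible form, and Cyp2c68 fell the most. Their log2FC values were -0.49 (SE 0.11, adjusted p = 0.00206) and -0.45 (SE 0.10, adjusted p = 0.00319). Cyp2c29 lay at 81.6, 75.8 and 62.7 CPM against 76.9, 53.6 and 61.2 CPM, groups that overlapped (log2FC -0.20, SE 0.11, adjusted p = 0.174). It was called only without BBR+OA replicate 1, at -0.36, and with replicate number as a block. Of 43 conjugating enzymes 5 rose (11.6%) and 16 fell (37.2%). Those that fell were 10 glutathione transferases and 6 glucuronosyltransferases, led by Gsta4 (log2FC -0.77, SE 0.06, adjusted p = 1.85e-07) and Gsta2 (-0.68, SE 0.15, adjusted p = 0.00233). The sulfotransferases Sult1a1, Sult1d1 and Sult1e1 were 3 of the 5 that rose.

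Of 23 acute-phase and inflammatory genes 12 rose and 2 fell, with a median of 0.866, the highest of the 41 lists described here, and 0.343 without BBR+OA replicate 2. The rises did not take in the whole group: the acute-phase proteins Saa1, Saa2, Saa4, Orm1, Orm2 and Hpx were not called, with log2FC values between -0.07 and 0.06. Ccl2, the monocyte-attracting chemokine, rose from 73.5, 46.8 and 51.2 CPM to 409, 312 and 361 CPM (log2FC 2.64, SE 0.13, adjusted p = 2.66e-09), and Ccl7 rose by 1.97 (SE 0.22, adjusted p = 7.7e-06). The neutrophil chemokines Cxcl1 and Cxcl2 rose by 1.497 and 2.39, the hepatocyte acute-phase proteins Crp and Apcs by 1.95 and 1.61, and Hamp, the iron hormone hepcidin, by 1.17. Cxcl10, an interferon-induced chemokine, fell by 0.71 (SE 0.15, adjusted p = 0.00196). Of 20 interferon-response genes none rose, 9 fell and 11 were not called. The falls came to 5 with DESeq2 and without BBR replicate 1, BBR replicate 2 or BBR+OA replicate 2, and to 14 without BBR replicate 3. Among the 9 were Ifit3b at -1.12 (SE 0.24, adjusted p = 0.00176) and Ifi44 at -1.03 (SE 0.19, adjusted p = 0.000715).

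Some markers of liver macrophages (Kupffer cells) moved, in both directions. Of 10 such markers 2 rose and 3 fell, beside 20.1% and 18.8% of all tested genes. Their summed level was 141 to 184 CPM with BBR and 103 to 117 CPM with BBR+OA. Most of it was Cd68, which fell, so the sum mainly followed that gene. Marco, a macrophage scavenger receptor, rose from 2.12, 1.74 and 1.07 CPM to 9.70, 6.54 and 7.73 CPM (log2FC 2.27, SE 0.22, adjusted p = 1.88e-06), and Adgre1 (F4/80) rose from 2.02, 2.32 and 1.504 CPM to 7.12, 5.27 and 7.25 CPM. The leukocyte integrins Itgam and Itgal, which are not among the 10 markers, rose by 1.80 and 1.82, with means under 5 CPM in both groups. Csf1r, a marker of the 10 (log2FC 0.35), and Ptprc, the lymphoid marker with counts (log2FC 0.20), were not called. The Kupffer cell lectin Clec4f, Cd68 and C1qc fell, with Cd68 at 106, 149 and 138 CPM against 59.3, 82.3 and 73.3 CPM. The 4 neutrophil markers, too low to be tested, summed to 0.0643 to 0.322 CPM with BBR and to 0.475 to 0.909 CPM with BBR+OA. Most of the sum was Csf3r, with 3, 1 and 6 counts in the BBR libraries and 13, 7 and 6 in the BBR+OA libraries. S100a8 had no count in the BBR libraries and 4, 1 and 2 counts in the BBR+OA libraries, so these levels rest on few reads. The part of these cells in the inflammatory changes was not tested, and in bulk RNA fewer cells of a type and less RNA per cell cannot be told apart.

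Secreted plasma proteins of hepatocytes leaned downward, with 14 of 30 lower (46.7%) and 6 higher (20%), beside 18.8% and 20.1% of all tested genes. Serpina7, thyroxine-binding globulin, fell from 89.3, 68.6 and 87.5 CPM to 22.6, 30.3 and 38.2 CPM (log2FC -1.44, SE 0.14, adjusted p = 1.36e-06), and Ambp fell by 0.35 (SE 0.05, adjusted p = 0.000103). Serpina3k rose from 1028, 987 and 883 CPM to 2108, 2086 and 2082 CPM (log2FC 1.12, SE 0.05, adjusted p = 2.12e-09), in the direction of its relative Serpina3m. The annotated interval of Serpina3m holds all of Serpina3k, so their values may not be independent. Of 14 hepatocyte identity factors 3 rose and 3 fell (21.4% each), near the 20.1% and 18.8% of all tested genes. Onecut2 fell by 0.82 (SE 0.06, adjusted p = 7.8e-08) and Foxa1 by 0.35 (SE 0.08, adjusted p = 0.00218), while Hnf4a had a log2FC of 0.12 and was not called.

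Among 24 genes of dedifferentiation, biliary fate and YAP response, 14 rose and 6 fell. The YAP-responsive genes Ctgf and Ankrd1 rose, Ctgf from 163, 148 and 147 CPM to 333, 345 and 315 CPM (log2FC 1.12, SE 0.05, adjusted p = 1.47e-09) and Ankrd1 by 1.02 (SE 0.06, adjusted p = 9.37e-09). Spp1 (osteopontin), high in bile duct cells, fell from 362, 338 and 328 CPM to 143, 182 and 173 CPM (log2FC -1.05, SE 0.07, adjusted p = 6.43e-08). The 7 bile duct markers summed to 390 to 422 CPM with BBR and to 198 to 240 CPM with BBR+OA, most of it Spp1, and 2 of them, Spp1 and Sox9, fell. Of 48 collagens, laminins and integrins 8 rose (16.7%) and 15 fell (31.2%), beside 20.1% and 18.8% of all tested genes. Lamb3, a chain of the epithelial laminin 332, fell from 38.5, 35.6 and 36.7 CPM to 9.29, 8.55 and 9.04 CPM (log2FC -2.04, SE 0.07, adjusted p = 1.46e-10), and its partner chain Lama3 fell by 0.82. The basement membrane collagen Col4a1 rose by 0.997 (SE 0.05, adjusted p = 7.52e-09).

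Circadian clock genes moved in both directions. Of 19 tested 7 rose and 8 fell. Those that rose included the activators Npas2 (log2FC 1.25, SE 0.15, adjusted p = 1.24e-05), Arntl (1.08) and Clock (0.37). Those that fell included repressors and outputs that the activators drive: Nr1d1 went from 12.05, 11.96 and 13.3 CPM to 5.05, 4.11 and 4.52 CPM (log2FC -1.44, SE 0.12, adjusted p = 3.15e-07), Per3 fell by 2.08 (SE 0.15, adjusted p = 1.13e-07) and Dbp had a log2FC of -2.48. Dbp was low, with means of 2.53 CPM in BBR and 0.448 CPM in BBR+OA. The repressors were themselves divided, since Per1 rose by 0.82, Nfil3 by 0.57 and Cry1 by 0.45.

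Growth and nutrient signalling genes were mostly higher, with 10 of 17 up and 4 down. Irs2, the hepatic insulin receptor substrate that rises on fasting, went from 17.99, 16.3 and 17.4 CPM to 36.6, 41.8 and 46.7 CPM (log2FC 1.27, SE 0.09, adjusted p = 6.04e-08). Sesn3, a sestrin, fell by 0.56 (SE 0.07, adjusted p = 4.06e-05). Of 14 metal handling genes 7 rose and 2 fell. Mt2, a metallothionein that buffers zinc, rose from 214, 247 and 243 CPM to 499, 498 and 505 CPM (log2FC 1.09, SE 0.05, adjusted p = 2.12e-09), Hfe2 (hemojuvelin) rose by 0.91 (SE 0.11, adjusted p = 1.07e-05), and the iron exporter Slc40a1 fell by 0.56 (SE 0.06, adjusted p = 7.23e-06). Of 21 autophagy and lysosome genes none rose and 11 fell, with a median of -0.148. Ulk1, the kinase that starts autophagy, fell by 0.52 (SE 0.06, adjusted p = 8.05e-06).

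The large housekeeping complexes moved little. Of 77 cytosolic ribosomal protein genes 6 rose and 1 fell, against 3 of each with upper quartile scaling and 13 and 2 with replicate number as a block, and 3 to 9 rose when 1 library was left out (3 without BBR replicate 1 or BBR+OA replicate 3). All 77 lay within log2FC values of -0.223 and 0.291. Rpl27 led at 0.29 (SE 0.05, adjusted p = 0.000511). Of 38 proteasome subunits 13 rose and none fell, but upper quartile scaling gave 6 higher and 5 lower, and 7 rose without BBR replicate 3 or BBR+OA replicate 3. Psmd10 rose by 0.29 (SE 0.06, adjusted p = 0.00113). Of 77 nuclear-encoded respiratory chain subunits 15 rose (19.5%) and 3 fell (3.9%), beside 20.1% and 18.8% of all tested genes. The counts were 8 and 6 with upper quartile scaling, and 8 rose without BBR+OA replicate 2 or 3. The rises were led by Atp5g1 at 0.33 (SE 0.06, adjusted p = 0.000411). Of the 13 mitochondrially encoded subunits only mt-Co1 was called, at -0.14 (SE 0.05, adjusted p = 0.0318), a call that 5 of the 6 single-library omissions removed. Others of the 13 were called higher in some settings, 6 without BBR replicate 1, 5 with replicate number as a block, and 3 without BBR+OA replicate 3 or with no filter on low counts. Of 20 cell cycle genes 1 rose and 1 fell: Rrm2, a subunit of ribonucleotide reductase, at 0.87 (SE 0.19, adjusted p = 0.00193), and the cell cycle inhibitor Cdkn1b at -0.16 (SE 0.06, adjusted p = 0.0372), which DESeq2 and 4 of those omissions did not call.

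**Figure D3:**
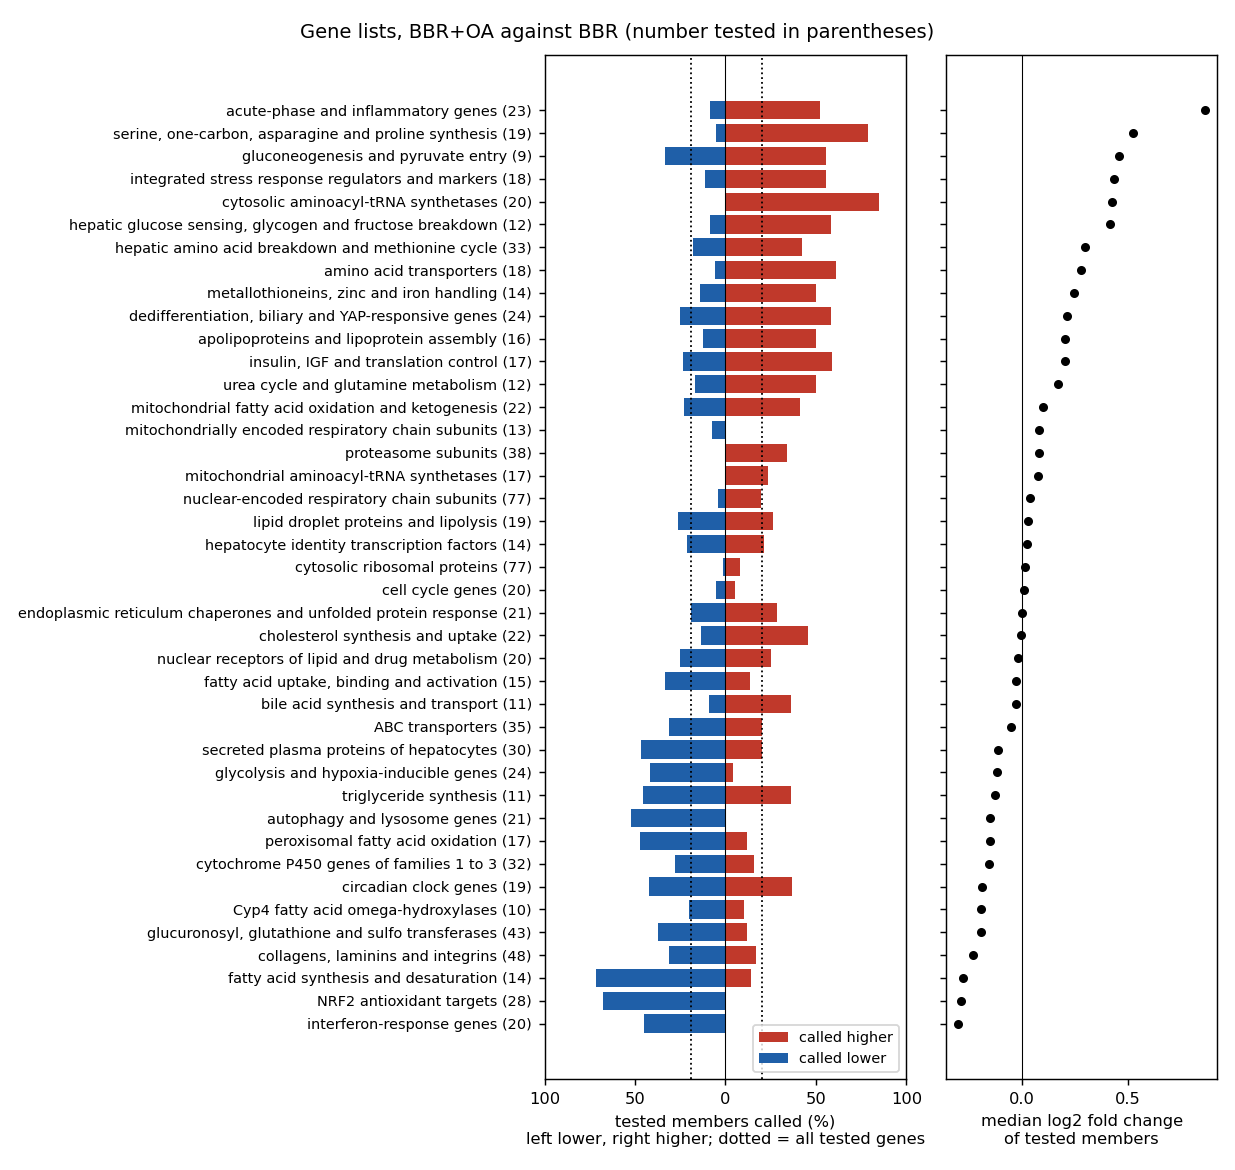
Share of the tested members of each gene list called higher (right) or lower (left) in BBR+OA against BBR, with dotted lines at the shares over all tested genes (20.1% and 18.8%), and the median log2FC of each list. Aminoacyl-tRNA synthetases and amino acid synthesis reach furthest to the right, and NRF2 targets and fatty acid synthesis furthest to the left.

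Whether the OA effect itself depended on BBR was asked with a difference of effects, the log2 effect of OA with BBR minus that of OA without BBR, over all 12 libraries. It passed the adjusted p of 0.05 in 1551 of 12742 genes (12.2%), 875 with a more positive and 676 with a more negative effect when BBR was present. This count rested partly on single libraries, coming to 1028 without BBR replicate 2 and 1027 without OA replicate 2. Its balance was not firm: RLE scaling gave 782 and 761, and the negative side was the larger without BBR+OA replicate 1 (593 and 618), BBR+OA replicate 2 (640 and 663), BBR+OA replicate 3 (546 and 595) or OA replicate 2 (503 and 524). Of the 4826 genes called in BBR+OA against BBR, 951 (19.7%) passed.

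Pdk4 was the clearest case. OA took it from 9.59, 9.26 and 10.5 CPM in control to 14.3, 15.9 and 11.8 CPM without BBR, and from 116, 115 and 105 CPM to 39.1, 37.2 and 33.6 CPM with it, on the scale set over all 12 libraries. The log2 effect of OA was thus 0.51 without and -1.61 with BBR, a difference of -2.12 (SE 0.13, adjusted p = 2.46e-08). Hilpda followed the same pattern, with 30.4, 37.4 and 34.2 CPM in control, 62.6, 64.7 and 65.3 CPM with OA, 108, 120 and 103 CPM with BBR, and 81.5, 82.8 and 84.4 CPM with both. Its effects of OA were 0.92 without and -0.41 with BBR (difference -1.33, SE 0.09, adjusted p = 1.11e-07). Sema7a, whose control, OA and BBR+OA libraries all lay between 1.36 and 2.71 CPM, differed by -2.67 (SE 0.41, adjusted p = 0.00029), since it was high only in the 3 BBR libraries. Plin2 had fitted OA effects of 0.38 without and -0.02 with BBR, a difference of -0.40 (SE 0.07, adjusted p = 0.000961).

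In the other direction, Slc2a2 was at 58.6, 51.0 and 77.0 CPM in control, 52.2, 41.9 and 77.9 CPM with OA, 10.4, 10.1 and 15.9 CPM with BBR, and 29.9, 36.0 and 36.6 CPM with both. The fitted OA effect was 1.49 with BBR and -0.12 without it, a difference of 1.61 (SE 0.28, adjusted p = 0.000922). Mgll, monoacylglycerol lipase, stood at 11.9, 9.79 and 13.1 CPM in control and 6.17, 3.57 and 6.95 CPM with OA, but at 8.56, 5.22 and 5.92 CPM with BBR and 12.8, 10.3 and 12.3 CPM with both. The groups moved in opposite directions, with a difference of effects of 1.88 (SE 0.27, adjusted p = 0.000161). Cpn2, a subunit of carboxypeptidase N, had a difference of 1.97 (SE 0.27, adjusted p = 0.00012), and Slc16a12, a creatine carrier of the monocarboxylate transporter family, one of 1.62 (SE 0.18, adjusted p = 2.05e-05). Cps1 had positive fitted OA effects in both settings, 4.29 with and 3.31 without BBR, a difference of 0.98 (SE 0.15, adjusted p = 0.000352).

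**Figure D4:**
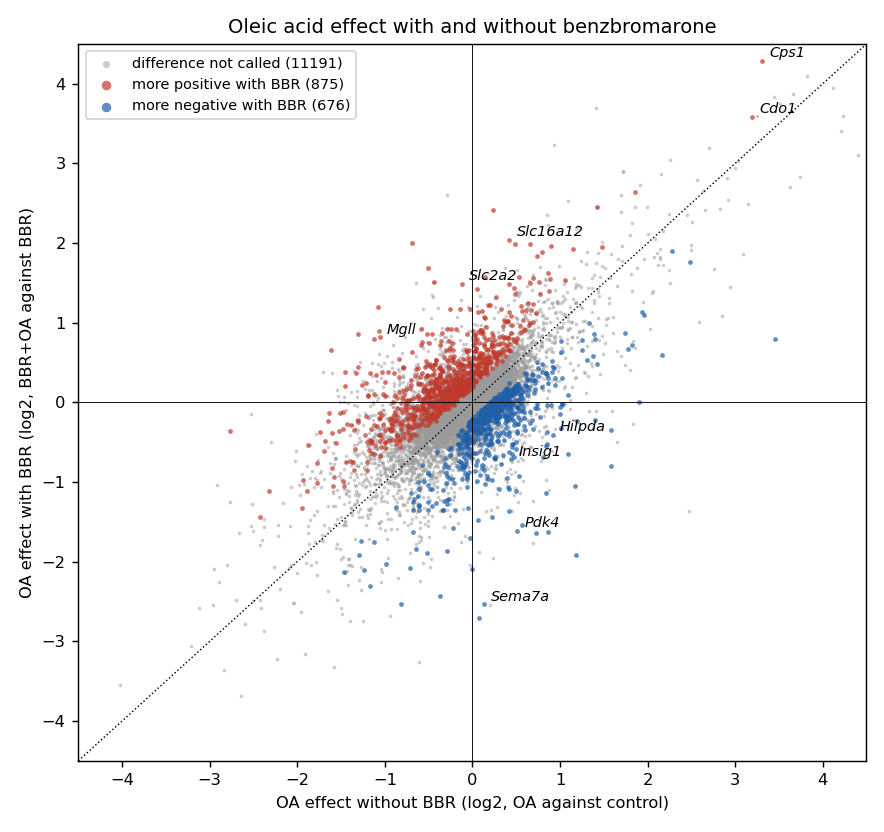
Log2 effect of OA with BBR (vertical axis, BBR+OA against BBR) by its log2 effect without BBR (horizontal axis, OA against control), 1 point a gene, with the line of equal effects dotted. The 875 and 676 genes whose effects differed lie above and below the line, Pdk4 and Hilpda fall at the lower right, and 20 genes lie beyond the axis limits of 4.5.

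**Figure D5:**
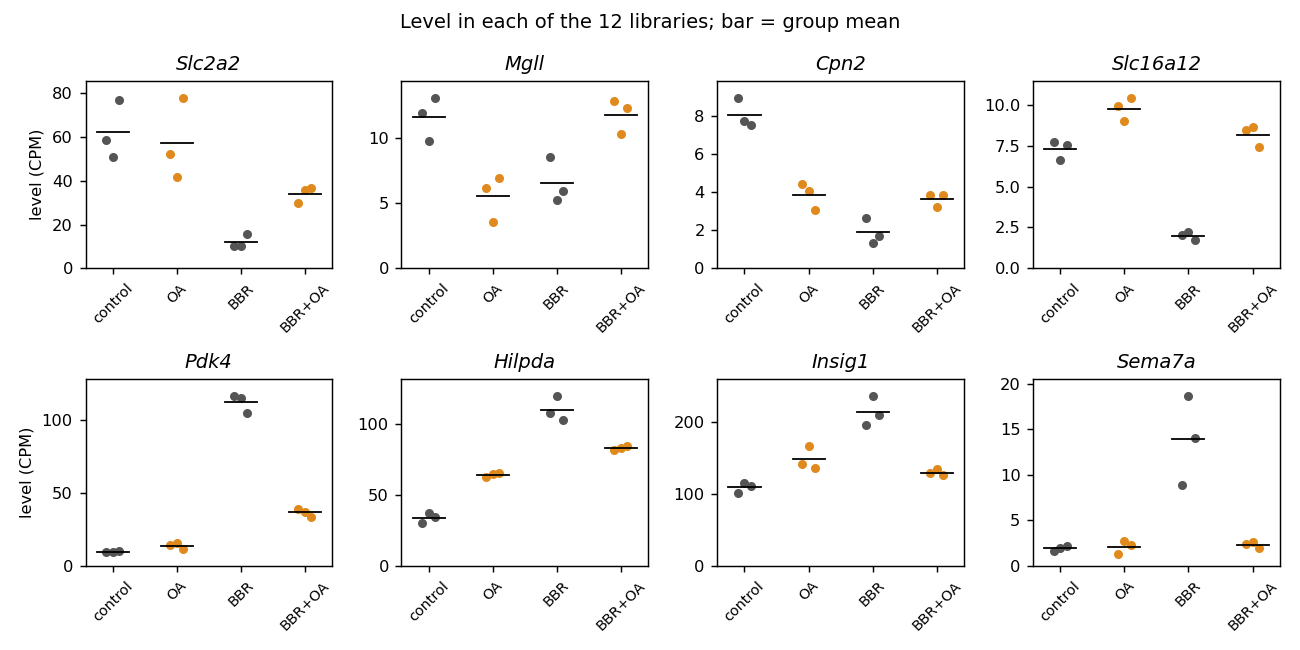
Level in CPM of 8 genes in each of the 12 libraries (points) with the group mean (bar), for control, OA, BBR and BBR+OA, on axes that start at 0. In Slc2a2, Slc16a12, Pdk4 and Sema7a the BBR libraries stand apart from the control libraries, and the BBR+OA libraries lie between them or close to control.

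By group, the differences of effect fell most often on cholesterol and glycolysis genes. Of 22 cholesterol genes 17 differed, all toward a lower OA effect with BBR, and the median OA effect was 0.452 without BBR beside -0.00512 with it. Of 24 glycolysis and hypoxia-inducible genes 15 differed, again all toward a lower effect, with medians of 0.285 without and -0.114 with BBR. Insig1 gave a difference of -1.16 (SE 0.10, adjusted p = 4.63e-06) and Hk1 one of -1.01 (SE 0.15, adjusted p = 0.000189). Genes of glucose sensing (7 of 12), mitochondrial oxidation (9 of 22), amino acid breakdown (12 of 33), conjugation (10 of 43), ABC transport (11 of 35), plasma proteins (9 of 30) and the acute phase (7 of 23) that differed were all shifted toward a higher OA effect with BBR. Over all genes tested 12.2% differed. The counts by group were taken in the main fit alone, and the balance of directions over all genes was not firm. The stress response list (7 of 18) and the aminoacyl-tRNA synthetases (4 of 20) had members in both directions, and their median OA effects were close with and without BBR (0.434 and 0.491 for the stress response, 0.427 and 0.411 for the synthetases). None of the 20 interferon-response genes and none of the 77 ribosomal protein genes differed, at the same threshold.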

How the data were processed

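RNA from cultured mouse hepatocytes was enriched with oligo(dT) beads, copied to cDNA with random primers and read by Illumina sequencing, per the labels, which name the genome build mm10; the aligner and counting tool are not given in the sources used here. The authors deposited 1 table per library holding, for each of 22471 features, an estimated count and an FPKM; 2862 features held a fractional count. The deposited FPKM values were read and not tested. Estimated counts were rounded to whole numbers, filtered with filterByExpr (minimum count 10), scaled by TMM and tested with edgeR 4.0.16 (quasi-likelihood F test, Benjamini-Hochberg adjustment, threshold 0.05) on the 6 libraries. The difference of OA effects used all 12 libraries in 1 fit. Totals of 15485508 to 21544490 counts gave a median SE of 0.0752 on the log2 scale, for counting and replicate error together. Of the features, 560 were assembled loci with no gene name, which stayed in totals and tests and are not named.

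Gene lists and libraries were chosen with earlier results of these data known. Named genes were the 12 largest rises and 12 largest falls among called genes that reached 5 CPM in 1 group and had non-overlapping libraries; in each list the 2 called members that moved most in the commoner direction and 1 in the other; the 4 genes of largest difference of OA effects in each direction among genes called in BBR+OA against BBR; and a fixed set (Pparg, Ppara, Ppard, Plin2, Hilpda, Cidec, Cd36, Pdk4, Cyp2c29 and Atf4). Further members of the lists are named as well, picked with their values in view; some genes that the rule names are not reported here. Promoter windows came from RefSeq. The scripts were tested on simulated data. Alternatives were RLE and upper quartile scaling, no count filter, DESeq2 1.42.0, limma-voom (limma 3.58.1), replicate number as a block, all 12 libraries, and omission of each library in turn. No 2 replicates of a group agreed within sampling noise (chi-square over degrees of freedom 2.69 to 5.12).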

Additional observations from a re-analysis of the deposited data

Results flagged for a closer look

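The following genes had an OA effect that differed with and without BBR, by the test of the difference itself in the edgeR fit of all 12 libraries (adjusted p under 0.05). Values are the log2 effect of OA with BBR minus that without it. The difference was negative for Sema7a (-2.67), Pdk4 (-2.12), Tenm4 (-2.09), Ivl (-1.78), Htr2b (-1.71), Hilpda (-1.33), Insig1 (-1.16), Acaa1b (-1.13), Hk1 (-1.01), Ankrd37 (-0.98), Cyp26a1 (-0.87), Col27a1 (-0.66), Plin2 (-0.40) and Hsd17b7 (-0.39). It was positive for Cpn2 (1.97), Mgll (1.88), Slc16a12 (1.62), Slc2a2 (1.61), Acmsd (1.04), Cps1 (0.98), Ccl2 (0.78), Tkfc (0.59) and Cdo1 (0.39). Cyp26a1 lay closest to the threshold (adjusted p = 0.0473), lost the call with DESeq2 (-0.89) and in 10 of the 12 fits that left out 1 library (-1.36 to -0.68 over the 12). Tenm4 lost its call without OA replicate 2 (-1.53, adjusted p = 0.0743). Ivl, a structural protein of keratinizing epithelia, had fitted OA effects of -1.37 with and 0.42 without BBR. Groups of 3 libraries are too small for a test of single outlying samples.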

How the results depend on the processing

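The counts of genes called in BBR+OA against BBR kept within 1.5 times their values in every alternative run: 3854 (DESeq2) to 5281 (replicate block) genes in all, 1976 to 2727 higher and 1796 to 2870 lower, and 4012 to 4378 in all when 1 library was left out. With upper quartile scaling 40.8% of the called genes were higher, against 51.7%. The count of genes with a different OA effect ranged from 1027 to 1679 when 1 library was left out, with 1028 without BBR replicate 2 and 1027 without OA replicate 2, and was 1433 to 1664 in the alternatives that kept all libraries and no block; the cause of the drop was not tested. Plin2, which was not called, changed sign in 1 omission (its log2 fold change ranged from -0.059 to 0.0061 over the 6 omissions). Libraries of the same replicate number had weak positive correlations of their deviations from the group means (0.125, 0.0592 and 0.0819). Between different numbers the correlations were -0.0816 to 0.00219, so each BBR+OA library correlated best with the BBR library of its own number. The main fit took no account of replicate number. With replicate number as a block 5281 genes were called in BBR+OA against BBR, 2727 higher and 2554 lower, 248 and 318 of them at 2-fold or more, and 2265 genes had a different OA effect. Depth limits the lowest genes: 3 counts amount to 0.139 to 0.194 CPM in these libraries, and of 802 genes under 1 CPM 21.2% were called against 54.8% of the 1705 genes in the next to highest of 5 level bins.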

Other observations

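Of the 4826 genes called in BBR+OA against BBR, 4658 had libraries that did not overlap between the groups, while 49.6% of all tested genes were separated in this way. The direction of the calls went with the level of the gene. Between 1 and 10 CPM 284 genes rose and 596 fell, whereas at 100 CPM and above, leaving out the 102 most abundant genes, 594 rose and 340 fell. Sinusoidal endothelial markers moved in both directions: Stab2 and Lyve1 rose, Kdr, Cdh5 and Pecam1 fell, and the 8 markers summed to 70.1 to 74.2 CPM with BBR and to 65.5 to 68.9 CPM with BBR+OA. None of the 5 stellate cell markers tested was called by edgeR, and the 8 listed summed to 25.8 to 27.4 CPM with BBR and 25.3 to 27.6 CPM with BBR+OA. Of the 560 assembled loci with no gene name, 368 were tested and 127 were called.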
